A study of Mus musculus with 12 samples.

Results

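The 9 genes described here, Scx, Mkx, Tnmd, Sox9, Sox5, Sox6, Comp, Cilp and Chad, are genes of the tendon and cartilage programs, measured in cultured mouse skin fibroblasts. They were taken by name from a table of raw read counts for 21556 genes, with symbols matched to the Ensembl identifiers through GENCODE release M21, and all 9 were found. RNAseq was performed on 12 libraries in 4 groups of 3: WT control, WT with TGF-β2, Nox4 KO control and Nox4 KO with TGF-β2. WT cells were C57BL/6 and Nox4 KO cells came from B6.129-Nox4tm1Kkr/J mice, which lack a functional NADPH oxidase 4 in the whole animal. Littermates of both genotypes founded separate WT and Nox4 KO litters. The cells were primary fibroblasts of abdominal skin, cultured, starved for 24 h and then left unstimulated or given TGF-β2 at 10 ng/ml for 24 h. The age and sex of the mice behind these cultures, and whether the replicates of a group were separate animals, are not stated in the sources used here, so p-values measure the spread between these libraries only.

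Tendon and cartilage arise from mesenchymal progenitors that share the early use of Scx and Sox9. Scx (scleraxis) and Mkx (mohawk) are transcription factors of tendon cells, and Tnmd (tenomodulin) is a membrane glycoprotein of mature tendon that Scx can switch on. Sox9 is the master regulator of chondrocytes, and Sox5 and Sox6 are its partners on cartilage genes such as Col2a1 and Acan. Comp (cartilage oligomeric matrix protein, a thrombospondin), Cilp (cartilage intermediate layer protein) and Chad (chondroadherin) are secreted matrix proteins of these tissues. TGF-β signalling is known to act on both programs and to drive skin fibroblasts toward contractile myofibroblasts.

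Promoter windows of 250 bases before the RefSeq start were at hand for 5 of the 9 genes, Tnmd, Cilp, Chad, Sox5 and Sox6 (assembly GRCm38.p6). They were searched on both strands for the SMAD-binding core CAGAC, the E-box CANNTG bound by Scx and other basic helix-loop-helix factors, and the SOX core ACAAT. Over all 32851 windows of this length, 42.2% hold CAGAC, 66.2% hold CANNTG and 27.7% hold ACAAT. Windows of a tendon gene that was lower after TGF-β2 and of a cartilage matrix gene that differed widely between cultures are shown because they differ in these letters.
Cilp, chr9:65264930-65265179, plus strand, E-boxes in capitals: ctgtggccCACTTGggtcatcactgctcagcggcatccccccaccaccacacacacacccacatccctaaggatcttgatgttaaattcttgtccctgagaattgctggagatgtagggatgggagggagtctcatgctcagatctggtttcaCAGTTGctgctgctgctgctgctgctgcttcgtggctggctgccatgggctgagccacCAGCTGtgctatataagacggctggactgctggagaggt
Tnmd, chrX:133850758-133851007, plus strand, SOX core in capitals: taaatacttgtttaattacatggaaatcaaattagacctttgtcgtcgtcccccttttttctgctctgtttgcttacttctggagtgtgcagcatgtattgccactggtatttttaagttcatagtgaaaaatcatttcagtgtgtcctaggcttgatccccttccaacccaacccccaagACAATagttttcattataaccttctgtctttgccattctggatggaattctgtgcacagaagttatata
The Cilp window holds 3 E-boxes, none of the CAGAC letters and none of the ACAAT letters. The Tnmd window holds 1 ACAAT, no E-box and no CAGAC. In the Chad window there was 1 E-box, and the Sox5 window, which lies inside the gene and far from its outermost annotated start, held 1 CAGAC and 1 ACAAT. Sox6 had 6 windows, of which 2 held CAGAC, all 6 an E-box and 3 ACAAT. These matches describe the letters only, since binding was not measured.

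Positions are those of GRCm38. The tendon genes are Scx (ENSMUSG00000034161) at chr15:76457452-76459458 on the plus strand, Mkx (ENSMUSG00000061013) at chr18:6934518-7004780 on the minus strand and Tnmd (ENSMUSG00000031250) at chrX:133850980-133865577 on the plus strand. The SOX genes are Sox9 (ENSMUSG00000000567) at chr11:112782224-112787760 on the plus strand, Sox5 (ENSMUSG00000041540) at chr6:143828425-144781977 on the minus strand and Sox6 (ENSMUSG00000051910) at chr7:115470872-116038796 on the minus strand. Sox6 shares its chromosome with Nox4, 28.1 Mb away. The matrix genes are Comp (ENSMUSG00000031849) at chr8:70373558-70382066, Cilp (ENSMUSG00000042254) at chr9:65265180-65280605 and Chad (ENSMUSG00000039084) at chr11:94565047-94569127, all on the plus strand. Scx lies within the span of Bop1 and Chad within that of Acsf2, each on the opposite strand and without shared exon bases. Exons of Mkx share 5.04% of their bases with AC148004.2, which lies on the same strand, so that strand could not separate their reads. Those of Sox5 share 0.906% with the antisense gene Sox5os1, and whether the counting used strand is not stated. Neither of these overlapping genes is in the count table.

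The libraries held between 35118344 and 43796260 counted reads. Nox4 itself was read at 0.636 to 1.4 RPKM in the Nox4 KO control libraries and 1.31 to 2.42 RPKM in the WT control libraries, which overlap. After TGF-β2 it was 4.39 to 6.85 RPKM in Nox4 KO and 8.56 to 16.3 RPKM in WT, which do not. The counts cover the whole gene and cannot show the deleted part of it. The fibroblast markers Col1a1, Col1a2, Col3a1, Pdgfra, Pdgfrb, Thy1, Dcn and Lum all had a mean over 1 RPKM in each group, with a summed level of 4090 to 6960 RPKM per library. Hair follicle and keratinocyte markers summed to at most 0.963 RPKM. Skeletal muscle markers summed to 0.943 to 8.01 RPKM, nearly all of it from Des, while the muscle regulator Myf5 had no read in any library. Endothelial markers summed to 1.68 to 5.38 RPKM, led by Kdr. Macrophage markers were present in every library and differed between them, from a sum of 12.6 to 113 RPKM, led by Lyz2. The log2 fold change of Acta2, the smooth muscle actin gene of myofibroblasts, after TGF-β2 was 0.14 in WT and -0.06 in Nox4 KO.

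Levels are given as RPKM, counted reads scaled to the length of the merged exons and to the library total, which allows genes of different length to be compared. Cilp was by far the most abundant of the 9 over the 12 libraries, with a mean of 41.1 RPKM. Scx (11.3 RPKM), Tnmd (9.73 RPKM), Sox9 (5.76 RPKM) and Comp (2.06 RPKM) followed. The other 4 genes stayed low, with means of 0.657 RPKM for Mkx, 0.311 RPKM for Sox5, 0.145 RPKM for Chad and 0.0741 RPKM for Sox6. In WT control the order was Cilp, Tnmd, Sox9, Scx, Comp, Mkx, Sox5, Chad and Sox6, and Cilp at 36.7 ± 8.87 RPKM (SD, n = 3) lay above 92.7% of the genes in the table. Neighbours in that order whose libraries overlapped were Sox9 and Scx, Mkx and Sox5, Sox5 and Chad, and Chad and Sox6, while Cilp, Tnmd and Sox9 were apart from each other. After TGF-β2, Scx stood in the second place in WT (10.2 ± 3.75 RPKM, SD, n = 3), where its libraries overlapped with those of Tnmd (8.37 ± 2.24 RPKM). RNA was measured in bulk, so fewer cells of a type and less RNA per cell cannot be told apart for any of these genes.

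**Figure D1:**
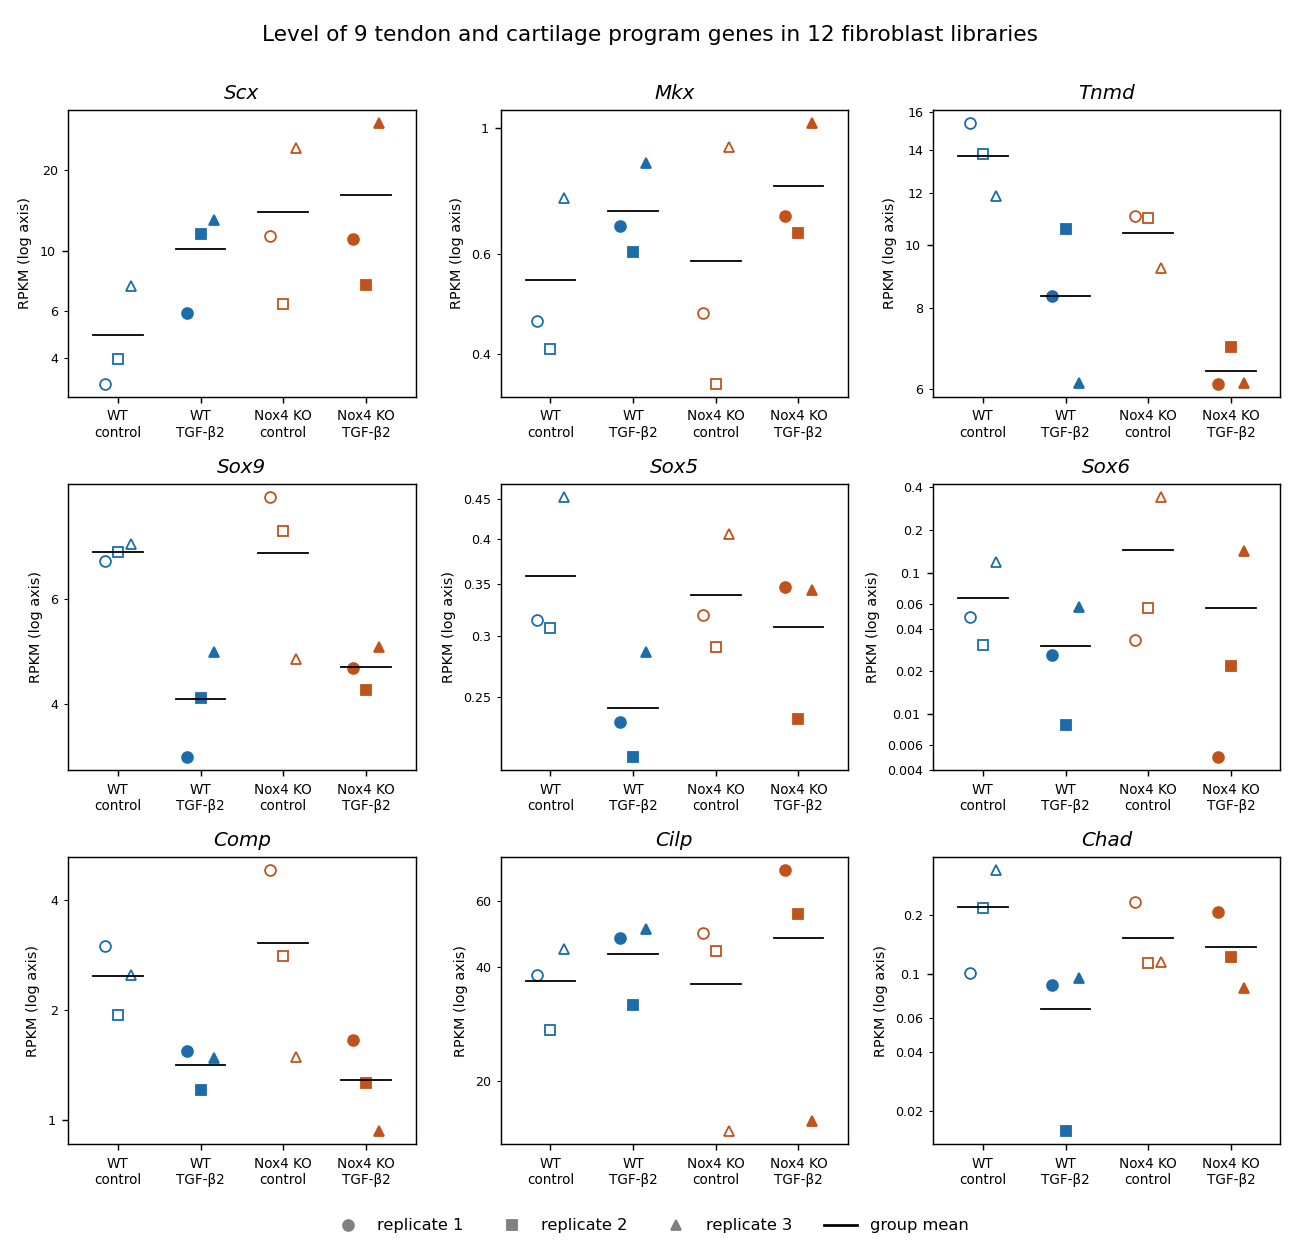
Level of each of the 9 genes in each of the 12 libraries, in RPKM on a log axis, by group; open symbols are control and filled symbols TGF-β2, blue is WT and orange Nox4 KO, the symbol shape gives the replicate number and the bar the group mean (n = 3). Cilp ranges from 14.7 to 72.5 RPKM, and its lowest values are the 2 Nox4 KO libraries numbered 3, which also hold the highest Scx values.

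Both Nox4 KO libraries numbered 3 stood apart in these genes. Over all expressed genes their median absolute log2 difference from the rest of the group was 0.165 in control and 0.158 after TGF-β2. WT TGF-β2 replicates 2 and 3 lay farther from their group by that measure, at 0.308 and 0.224. In Nox4 KO control, Cilp was 49.5, 44.2 and 14.7 RPKM in replicates 1 to 3, and after TGF-β2 it was 72.5, 55.6 and 15.6 RPKM. Scx ran the other way, with 11.4, 6.34 and 24.1 RPKM in control and 11.1, 7.46 and 29.8 RPKM after TGF-β2. The ratio of Scx to Cilp was 1.64 and 1.91 in the 2 libraries numbered 3, and 0.0843 to 0.363 in the other 10 libraries. Mkx and Sox6 were also highest in these libraries within each Nox4 KO group, and Comp was lowest. For Sox6 this amounted to 118 reads in control against 12 and 22 in the other replicates, and to 56 reads after TGF-β2 against 2 and 9. In WT, replicate 3 was also the highest of each group for Scx, Mkx and Sox6, with Sox6 at 45 reads in control and 20 after TGF-β2. It was not the lowest of either WT group for Cilp or Comp. Summed macrophage markers were 19.6 and 12.6 RPKM in the Nox4 KO libraries numbered 3 against 22.3 to 87.4 RPKM in the other Nox4 KO libraries. WT TGF-β2 replicate 2 was also at 19.6 RPKM, with Cilp at 31.8 RPKM. In the Nox4 KO libraries numbered 3, the muscle, adipocyte and fibroblast sums were also the lowest of each group, and the endothelial sum was the highest. The part of these markers in the result was not tested. The early growth response factor Egr2, a regulator of tendon genes, was lowest there too, at 0.939 RPKM against 2.76 and 4.88 RPKM in control.

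Same-numbered Nox4 KO libraries deviated together across all expressed genes, with correlations of 0.771, 0.685 and 0.748 over 10890 genes between the control and the TGF-β2 library of each number. They were therefore also compared with the replicate number as a block, and those values stand beside the unblocked ones below. Same-numbered WT libraries had correlations of 0.0723, 0.437 and 0.532 and are described without a block. Their blocked values, under which more members had an adjusted p under 0.05, are given at the end. As a measure of spread, the pooled SD of log2(CPM + 0.5) within the Nox4 KO groups was 1.08 for Cilp and 0.962 for Scx, above that of 99.5% and 99.2% of the 10890 expressed genes, whose median was 0.128. In WT it was 0.366 for Cilp and 0.576 for Scx, at 88.7% and 96.7%. Tnmd was the steadiest of the expressed members in Nox4 KO, at 0.125.

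**Figure D2:**
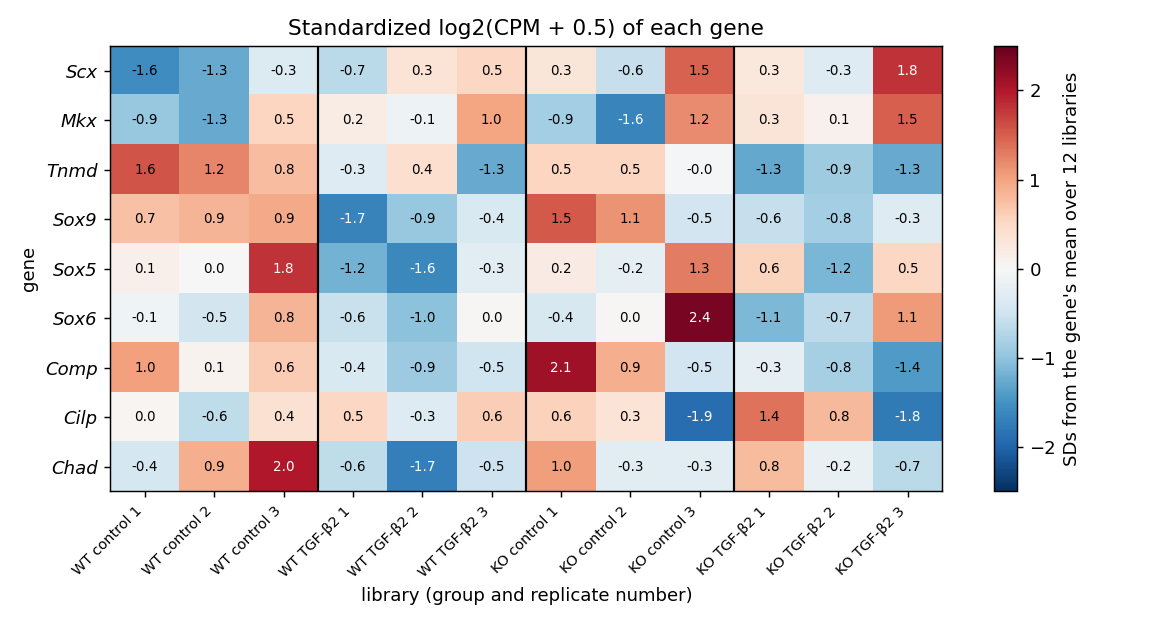
Standardized log2(CPM + 0.5) of each gene (rows) in each library (columns, by group and replicate number), in SDs from the gene's own mean over the 12 libraries. The Nox4 KO libraries numbered 3 are the highest of all 12 for Scx and the lowest for Cilp, and Tnmd is above its mean in the 3 WT control libraries.

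The first comparison asked how these genes respond to TGF-β2 in WT fibroblasts. None of the 9 was called, a call being an adjusted p under 0.05 and a change of at least 2-fold in edgeR's quasi-likelihood test, against 7.68% of the 10743 genes tested. Only 5 genes, Scx, Tnmd, Sox9, Comp and Cilp, passed the limit of 1 RPKM and entered that test. Of these 5, 4 had an unadjusted p under 0.05 (38.5% of all genes tested), and DESeq2 called 1, Scx. The median log2 fold change of the 5 was -0.66, beside 0.02 over all genes tested.

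Among the tendon genes, Scx was 3.22, 3.98 and 7.43 RPKM in the WT control libraries and 5.9, 11.6 and 13 RPKM after TGF-β2. The groups overlapped, because control replicate 3 exceeded TGF-β2 replicate 1. The log2 fold change of Scx was 1.12 (SE 0.39, adjusted p = 0.0806 by edgeR). DESeq2 gave 1.1 (SE 0.4, adjusted p = 0.023), a call that 8.19% of the genes received with that tool, and edgeR without control replicate 3 gave 1.51 (adjusted p = 0.0496). With each of the 6 libraries left out in turn, Scx ran from 0.88 to 1.51 (adjusted p 0.0496 to 0.223 by edgeR), and no other omission gave a call. In the edgeR fit on all 12 libraries its unadjusted p was not under 0.05. Tnmd, by contrast, was 15.4, 13.8 and 11.9 RPKM in control and 8.34, 10.6 and 6.14 RPKM after TGF-β2. Each control library of Tnmd lay above each stimulated one, although its log2 fold change of -0.66 (SE 0.21) did not pass the test (adjusted p = 0.0629 by edgeR). Groups that do not overlap were found for 45.2% of the genes tested here. For Mkx, 64, 62 and 121 reads in control stood against 109, 91 and 129 after TGF-β2, and the overlapping groups gave a log2 fold change of 0.49 (SE 0.27, adjusted p = 0.277 by edgeR with no filter).

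Sox9 was the member with the smallest adjusted p in WT. It was read at 6.95, 7.2 and 7.42 RPKM in the control libraries and at 3.25, 4.09 and 4.89 RPKM after TGF-β2, with every stimulated library below every control library. Its log2 fold change was -0.76 (SE 0.15, adjusted p = 0.0134 by edgeR), which is less than 2-fold. An adjusted p under 0.05 at any fold was reached by 24.1% of the genes, and without WT control replicate 2 the adjusted p of Sox9 was 0.0505. Its partner Sox5 was at 84, 89 and 139 reads in control and 72, 60 and 81 after TGF-β2. These groups did not overlap, as for 37% of the genes with no filter. The log2 fold change of Sox5 was -0.48 (SE 0.24, adjusted p = 0.214 by edgeR with no filter). Sox6, with 16, 11 and 45 reads against 10, 3 and 20, overlapped between the groups, and its log2 fold change of -1.02 (SE 0.69) had an adjusted p of 0.366 by edgeR with no filter. It was -0.32 without control replicate 3 and -1.8 without TGF-β2 replicate 3.

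Of the matrix genes, Comp was 2.99, 1.94 and 2.5 RPKM in WT control and 1.55, 1.21 and 1.48 RPKM after TGF-β2. The stimulated libraries of Comp were all below the control libraries, and the log2 fold change of -0.75 (SE 0.22) had an adjusted p of 0.0505 by edgeR. Cilp, at 38.2, 27.2 and 44.8 RPKM in control and 48, 31.8 and 50.7 RPKM after TGF-β2, overlapped between the groups (log2 fold change 0.31, SE 0.24, adjusted p = 0.387 by edgeR). Chad had 6, 14 and 23 reads in WT control and 6, 1 and 6 reads after TGF-β2. Its log2 fold change of -1.62 (SE 0.66) did not pass the test (adjusted p = 0.141 by edgeR with no filter). In log2(CPM + 0.5) the groups of Chad did not overlap, and the two-sided exact permutation test gave its smallest possible p of 0.1. That separation rested on the library totals, since control replicate 1 and TGF-β2 replicates 1 and 3 each had 6 reads. With no filter, groups that do not overlap were found for 37% of 16828 genes.

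Some summed markers of other cell types were also lower after TGF-β2. In WT, every stimulated library was below every control library for Tnmd, Sox9 and Comp, of which only Sox9 had an adjusted p under 0.05 by edgeR. In Nox4 KO the groups of Sox9 and Comp overlapped, and those of Tnmd did not. The 6 adipocyte markers summed to 5.54 to 7.51 RPKM in WT control and 2.16 to 2.58 RPKM after TGF-β2, and to 3.11 to 5.04 RPKM and 1.23 to 1.81 RPKM in Nox4 KO. Nearly all of that sum came from the regulators Cebpa and Pparg, while the fat cell genes Plin1, Cidec and Lep had at most 4 reads in any library and Adipoq at most 13. Summed macrophage markers, led by Lyz2, were lower in every same-numbered pair, at 24.2 to 113 RPKM in WT control against 19.6 to 78 RPKM, and at 19.6 to 87.4 RPKM in Nox4 KO control against 12.6 to 63.2 RPKM. Ptprc of the same list went the other way in every pair. Its mean was 0.206 RPKM in WT control and 0.247 RPKM after TGF-β2, and 0.132 and 0.218 RPKM in Nox4 KO. The summed fibroblast markers were 5470 to 6190 RPKM in WT control and 4090 to 5160 RPKM after TGF-β2. Their part in the results on the 9 genes was not tested.

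The same comparison in Nox4 KO fibroblasts also called none of the 5 genes over 1 RPKM by edgeR without a block, against 6.8% of the 10809 genes tested. Comp and Tnmd had an unadjusted p under 0.05, which 43.8% of all genes reached, and DESeq2 called 1, Comp, beside 7.6% of the genes. With the replicate number as a block, edgeR called 1 of the 5, Comp, against 8.36% of the genes tested, and with no filter it also called Sox6. An adjusted p under 0.05 at any fold was far more common with the block, at 54% of the genes, than without it, at 30%.

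Comp was 4.83, 2.82 and 1.49 RPKM in the Nox4 KO control libraries and 1.66, 1.26 and 0.933 RPKM after TGF-β2. Within each replicate number it was lower after TGF-β2, by log2 ratios of -1.54, -1.16 and -0.68, while control replicate 3 lay below TGF-β2 replicate 1. The log2 fold change of Comp was -1.17 (SE 0.46, adjusted p = 0.102 by edgeR) without the block and -1.09 (SE 0.18, adjusted p = 0.00573 by edgeR) with it. DESeq2 without a block gave -1.16 (adjusted p = 0.0426). Leaving out both libraries numbered 3 gave -1.3 (adjusted p = 0.0351 by edgeR, called for 8.27% of the genes), and leaving out the control library alone gave -1.51 (adjusted p = 0.0337). With each of the 6 libraries omitted singly, Comp ran from -1.51 to -0.66 (log2), the latter without control replicate 1 (adjusted p = 0.271), and omitting any of the other 4 gave no call.

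Cilp differed little between the conditions beside its spread between replicates. Its log2 ratios within replicate numbers were 0.55, 0.33 and 0.09, and its log2 fold change was 0.49 (SE 0.66, adjusted p = 0.602 by edgeR) without the block and 0.41 (SE 0.088, adjusted p = 0.0128 by edgeR) with it. Without both libraries numbered 3 it was 0.54 (adjusted p = 0.0462). Each pair was higher after TGF-β2, by less than 2-fold. Chad, at 15, 8 and 7 reads in control and 15, 9 and 6 after TGF-β2, gave -0.04 (SE 0.52, adjusted p = 0.982 by edgeR with no filter).

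Tnmd in Nox4 KO was 11.1, 11 and 9.23 RPKM in control and 6.12, 6.97 and 6.13 RPKM after TGF-β2. Every stimulated library was below every control library, as for 48.5% of the genes tested, and Tnmd was the only member over 1 RPKM whose Nox4 KO groups did not overlap. Its log2 fold change was -0.62 (SE 0.12, adjusted p = 0.0161 by edgeR), and with the block the adjusted p was 0.00355. Without Nox4 KO control replicate 1, control replicate 2 or TGF-β2 replicate 1 the adjusted p was 0.0588, 0.0587 and 0.0561. The log2 fold change of Scx was 0.3 (SE 0.65, adjusted p = 0.751 by edgeR), and 0.26 (SE 0.094, adjusted p = 0.0662) with the block. By replicate number its log2 ratios were -0.04, 0.23 and 0.3, and without TGF-β2 replicate 3 alone the log2 fold change was -0.48. Mkx, at 72, 59 and 134 reads in control and 120, 114 and 171 after TGF-β2, gave 0.56 (SE 0.37, adjusted p = 0.339 by edgeR with no filter) and 0.61 (SE 0.17, adjusted p = 0.0266) with the block.

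Among the SOX genes, Sox9 was 8.92, 7.82 and 4.75 RPKM in Nox4 KO control and 4.6, 4.22 and 4.99 RPKM after TGF-β2. Replicates 1 and 2 were lower after TGF-β2, by log2 ratios of -0.96 and -0.89, and replicate 3 was at 0.07. The log2 fold change of Sox9 was -0.56 (SE 0.24, adjusted p = 0.125 by edgeR), -0.52 (adjusted p = 0.0935) with the block, and -0.84 (adjusted p = 0.0061) without both libraries numbered 3. Sox6 was lower in each same-numbered pair, by log2 ratios of -2.75, -1.36 and -1.29. Its log2 fold change was -1.24 (SE 1.2, adjusted p = 0.49 by edgeR with no filter) without the block and -1.32 (SE 0.3, adjusted p = 0.011) with it, a call given to 8.8% of the genes in that fit. The value rests on 2 to 118 reads per library, and without control replicate 3 alone the unblocked fit gave 0.4. For Sox5, 93, 92 and 112 reads stood against 113, 78 and 110, with a log2 fold change of -0.02 (SE 0.23, adjusted p = 0.977 by edgeR with no filter).

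**Figure D3:**
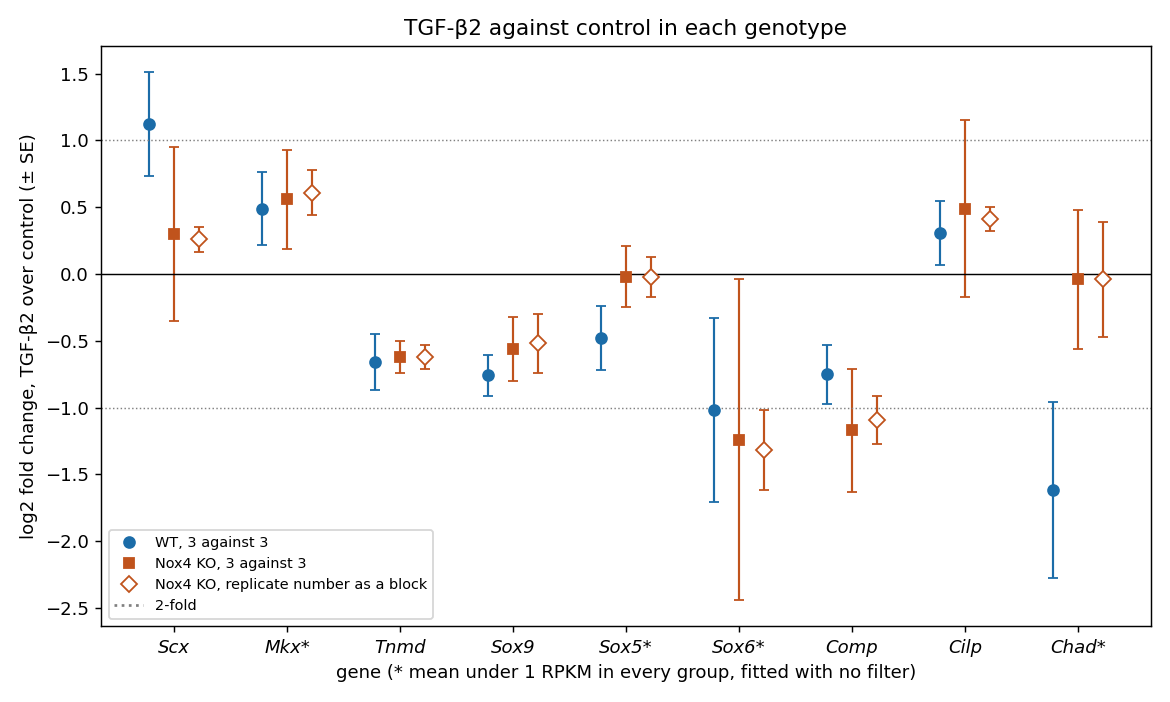
Log2 fold change of TGF-β2 over control with its standard error for each gene, in WT (blue circles), in Nox4 KO (orange squares) and in Nox4 KO with the replicate number as a block (open diamonds); 3 libraries against 3, dotted lines at 2-fold. Tnmd lies at -0.66 in WT and at -0.62 in both Nox4 KO fits, and for Comp the error narrows from 0.46 to 0.18 with the block.

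The next question was whether loss of Nox4 changed these genes at either condition. In control, edgeR called none of the 5 genes tested, as it called 0% of the 10767 genes; 2 of the 5, Scx and Tnmd, had an unadjusted p under 0.05, which 5.54% of the genes reached, and DESeq2 called 6 genes, none of them a member. Scx was 11.4, 6.34 and 24.1 RPKM in Nox4 KO against 3.22, 3.98 and 7.43 RPKM in WT, with a log2 fold change of 1.47 (SE 0.53, adjusted p = 0.828 by edgeR). The groups of Scx overlapped in 1 library on each side, and the value was 0.84 (adjusted p = 0.523) without Nox4 KO replicate 3 and 1.88 (adjusted p = 0.939) without WT replicate 3. Tnmd was lower in each Nox4 KO control library than in each WT control library, 9.23 to 11.1 RPKM against 11.9 to 15.4 RPKM, with a log2 fold change of -0.43 (SE 0.14, adjusted p = 0.828 by edgeR). It was the only tested member whose groups did not overlap, beside 13.6% of the genes. For Sox9, Comp and Cilp the log2 fold changes were -0.04 (SE 0.23), 0.26 (SE 0.42) and -0.05 (SE 0.45).

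After TGF-β2 the same test called none of the 5 genes, again beside 0% of the 10439 genes tested, and none had an unadjusted p under 0.05 or a call by DESeq2. All 5 overlapped between genotypes, whereas 10.1% of the genes did not. The log2 fold changes of Nox4 KO over WT were 0.69 (SE 0.54) for Scx, -0.36 (SE 0.2) for Tnmd, 0.2 (SE 0.16) for Sox9, -0.12 (SE 0.26) for Comp and 0.16 (SE 0.52) for Cilp. Their adjusted p-values by edgeR were between 0.838 and 0.927. Leaving out Nox4 KO TGF-β2 replicate 3 turned Scx to -0.09, and leaving out replicate 1 of that group turned Cilp to -0.27.

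Whether the response to TGF-β2 itself differed between the genotypes was tested as an interaction over all 12 libraries. EdgeR called 0% of the 10890 genes, with 2.68% at an unadjusted p under 0.05, and DESeq2 called 6 genes. No member was among either, and none had an unadjusted p under 0.05 in that fit. With a block for each genotype and replicate number, added after seeing the data, edgeR again called 0 genes, and 1 member, Scx, had an unadjusted p under 0.05, as 7.55% of the genes did (difference -0.84, SE 0.2, adjusted p = 0.538). The largest difference among the 5 genes over 1 RPKM was that of Scx, whose log2 response was 0.3 in Nox4 KO and 1.12 in WT, a difference of -0.78 in the joint fit (SE 0.82, adjusted p = 0.857 by edgeR). With 1 library left out at a time, the Scx difference ran from -1.57 to -0.17. For Tnmd the difference was 0.07 (SE 0.26), for Sox9 0.24 (SE 0.3), for Comp -0.38 (SE 0.53) and for Cilp 0.21 (SE 0.76). Among the low genes, Chad differed by 1.57 (SE 0.87, adjusted p = 0.995 by edgeR with no filter). The calls of Comp and Sox6 in Nox4 KO therefore do not show that these genes responded differently there. Each comparison shares a group of libraries with others, so agreement of sign between them is not independent.

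Other genes of the same programs were read beside the 9. Of 20 further tendon genes, 15 were over 1 RPKM in the WT comparison. Of these, 2 rose, 2 fell and 11 were not called, where 2.72% of all genes were called higher and 4.96% lower, with a median log2 fold change of -0.06 beside 0.02 over all genes. Thbs4, a thrombospondin of tendon matrix related to Comp, rose from 0.463, 0.295 and 0.737 RPKM to 2.94, 2.28 and 6.4 RPKM in WT (log2 fold change 3.02, adjusted p = 0.00803 by edgeR). Egr2, a zinc finger factor that acts on tendon collagen genes, rose by 2.15 (adjusted p = 0.000439). The small leucine-rich proteoglycan Prelp fell from 457 to 534 RPKM in the control libraries to 104 to 130 RPKM, a log2 fold change of -1.97 (adjusted p = 0.000439), and the fibril-associated collagen gene Col14a1 changed by -1.49 (adjusted p = 0.00823). Thbs4, with control means of 0.498 RPKM in WT and 0.504 RPKM in Nox4 KO, passed the limit of 1 RPKM only through the TGF-β2 groups. Col14a1, at 0.727 and 0.755 RPKM after TGF-β2, passed only through control. The places of both in these counts therefore depended on the change itself.

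In Nox4 KO, 1 of 15 tendon genes was called without the block, Prelp at -2.03 (adjusted p = 0.00312 by edgeR), and 4 were called with it, beside 6.8% and 8.36% of all genes. The 4 were Thbs4 at 2.66 (adjusted p = 0.000419), Egr2 at 2.42 (adjusted p = 0.000548), Prelp at -2.05 (adjusted p = 0.000153) and Col14a1 at -1.26 (adjusted p = 0.000827), and all 4 were also called in WT without a block. Leaving out both libraries numbered 3 gave 5 calls without the block and 6 with it, beside 8.27% and 8.94% of all genes. Leaving out Nox4 KO control replicate 2 alone gave 2, and leaving out TGF-β2 replicate 3 alone gave 3.

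Most of the cartilage program outside the 9 genes was read at low levels. Of 22 further cartilage genes, 4 were over 1 RPKM, Col11a1, Col11a2, Prg4 and Runx2, and 12 others were below that limit with more than 3 reads in at least 1 library. Acan, the core proteoglycan of cartilage, and Matn1, Col9a1, Snorc, Ucma and Cytl1 had at most 3 reads in every library, and the last 4 had none at all. Counts of 0 allow up to 3 reads, or 0.0427 RPKM for a gene of 2 kb in the smallest library. Col2a1, the main cartilage collagen gene and a direct target of Sox9, had 5 to 38 reads. Col11a1, a minor fibrillar collagen gene of cartilage that other connective tissues also use, was the 1 gene called. Of all genes tested, 7.68% were called in WT and 6.8% in Nox4 KO. Col11a1 was called in both genotypes. It rose from 9.86, 9.54 and 7.5 RPKM to 24.3, 16.9 and 20.8 RPKM in WT (log2 fold change 1.27, adjusted p = 0.00594 by edgeR) and by 1.71 (adjusted p = 0.0105) in Nox4 KO. Runx2, a regulator of bone and of late cartilage, was at 0.68 (adjusted p = 0.0219) in Nox4 KO, less than 2-fold, and at 0.5 (adjusted p = 0.134) in WT.

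Among 9 family relatives of the members, 4 were tested in each genotype. In each, 1 was called, Sox8, beside 7.68% of all genes in WT and 6.8% in Nox4 KO. Sox8, which forms the SoxE group with Sox9 and Sox10, rose from 31, 27 and 30 reads to 297, 294 and 216 reads in WT (log2 fold change 3.22, adjusted p = 0.000439 by edgeR). In Nox4 KO it rose from 28, 25 and 20 reads to 340, 336 and 107 reads (log2 fold change 3.35, adjusted p = 0.00705 by edgeR). All stimulated libraries were above all control libraries in both genotypes. The control means of Sox8, 0.25 RPKM in WT and 0.201 RPKM in Nox4 KO, were under the limit of 1 RPKM. It therefore entered both tests only through the TGF-β2 groups, where it was high. Its level after TGF-β2, 2.23 RPKM in WT, was below that of Sox9 at 4.08 RPKM. Thbs3, another thrombospondin, was at -0.87 (adjusted p = 0.0232) in Nox4 KO and -0.94 (adjusted p = 0.0158) in WT, short of 2-fold, and Tcf15, a relative of Scx, had at most 1 read in any library.

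**Figure D4:**
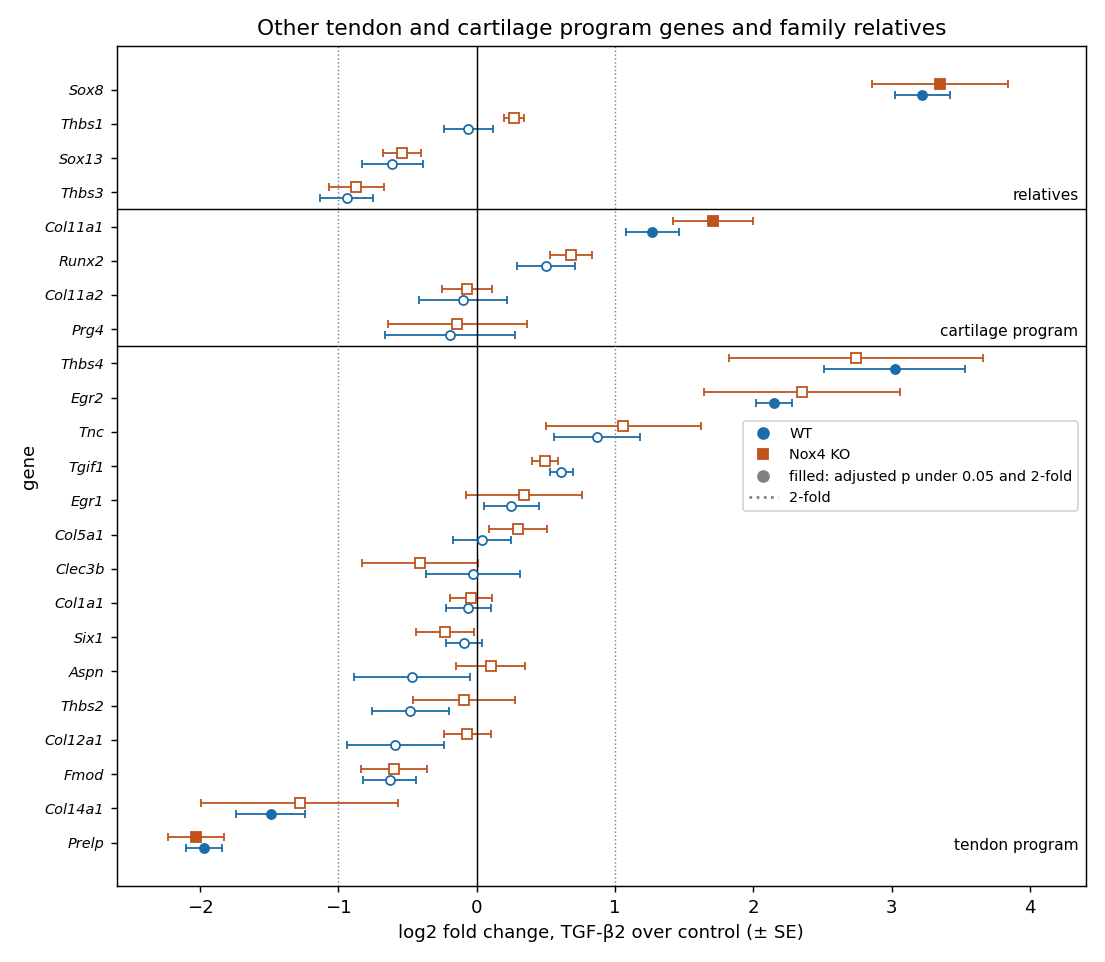
Log2 fold change of TGF-β2 over control, with its standard error, for the 23 other tendon program genes, cartilage program genes and relatives over 1 RPKM, in WT (circles) and Nox4 KO (squares); filled symbols have an adjusted p under 0.05 and at least 2-fold, from edgeR without a block, and dotted lines mark 2-fold. Sox8, Thbs4 and Egr2 lie farthest to the right, and Prelp farthest to the left, in both genotypes.

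The genes whose pattern over the 12 libraries was most like each member were found by the mean absolute difference of standardized log2(CPM + 0.5), in SDs, over 10889 candidates. For Cilp they were Egr1 (0.256), Egr3 (0.266) and Sf3b3 (0.275), where the median candidate was at 1.16. Egr1 is an immediate early factor that is also counted among the tendon genes here. For Scx they were Dctd (0.255), Anapc4 (0.305) and Zfp746 (0.326), for Tnmd Nova1 (0.226), Bid (0.228) and BC028528 (0.246), for Sox9 Tspan11 (0.267), Rtn4rl2 (0.273) and Pdzd4 (0.29), and for Comp Eml2 (0.207), Mylip (0.232) and Itpk1 (0.246). No member was among the 3 nearest genes of another.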

How the data were processed

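RNA from 12 libraries of mouse skin fibroblasts was sequenced by the authors as single reads of 50 nt, mapped to GRCm38 with STAR 2.4 and counted with featureCounts 1.4.6 over the merged protein-coding exons of each gene, with CASAVA 1.8.2 also listed, as the submitters' processing notes and the study's methods state. Reads with several locations were discarded, which lowers genes with near-identical copies. The deposited values are raw counts per gene, with no normalization or filter, and 0 columns were of no sample.

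RPKM was computed from the counts, the merged exon length in GENCODE M21 and the library total. Groups came from the labels. Each comparison was fitted on its own 6 libraries with edgeR 4.0.16 in R 4.3.3 (TMM, quasi-likelihood test, Benjamini-Hochberg adjustment over all genes tested), for genes with a mean of at least 1 RPKM in a group. A call needed an adjusted p under 0.05 and a 2-fold change. Mkx, Sox5, Sox6 and Chad, under that limit in every group, were fitted with no filter, beside exact permutation tests (two-sided) on log2(CPM + 0.5), which cannot go below p = 0.1. The interaction was tested over 12 libraries. Standard errors were derived from the F statistic. Other tools and settings were DESeq2 1.42.0, other scalings and filters, all 12 libraries, the replicate block and leaving out libraries. The steps were tested on simulated data.

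Same-numbered Nox4 KO libraries were treated as pairs because all 3 correlations of their deviations exceeded 0.1; the labels give no pairing. Named genes are the 9 members, genes of the 3 further lists that were called or had at most 3 reads in every library, the 3 most similar genes of each tested member, Nox4 and stimulation and cell type markers; Col2a1, Runx2 and Thbs3 lie outside this rule and were picked with their values known. The members, lists and tests were chosen with earlier results of these data known. Limits from a count of 0 cover counting error only.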

Additional observations from a re-analysis of the deposited data

How the results depend on the processing

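The number of members called was 0 in both TGF-β2 comparisons and became 1 under several settings: in WT with DESeq2, with the replicate block and with no fold limit, and in Nox4 KO with DESeq2, the block, all 12 libraries, no fold limit, and without both libraries numbered 3, with and without the block (chosen after seeing the data). With no fold limit the gene was Sox9 in WT and Tnmd in Nox4 KO, and otherwise Scx in WT and Comp in Nox4 KO. In WT the block gave Scx 1.13 (adjusted p = 0.00686 by edgeR). Short of 2-fold, it gave Tnmd -0.68 (adjusted p = 0.0167), Sox9 -0.78 (adjusted p = 0.00923), Comp -0.74 (adjusted p = 0.0145) and Cilp 0.3 (adjusted p = 0.059). An adjusted p under 0.05 at any fold was reached by 29.3% of the genes in that fit. DESeq2 without a block also gave Scx, Tnmd, Sox9 and Comp an adjusted p under 0.05 in WT. The WT libraries share only a number, 2 of 3 correlating best with their own. With all 12 libraries Comp in Nox4 KO was -1.13 (adjusted p = 0.0474). Under the block with no filter, 1 low member, Sox6, was called in Nox4 KO, also without both libraries numbered 3 (-1.63). Other tendon genes called in Nox4 KO, 1 in the text, were 3 with DESeq2, 2 with no filter, 4 with the block, 3 with all 12 libraries, 2 with no fold limit, and 5 or, with the block, 6 without both libraries numbered 3. Cartilage genes called in WT were 3 with filterByExpr and 2 with no filter, and in Nox4 KO 2 with no fold limit. The cause was not tested. The block changed no other call of the text.

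Several estimates changed sign, none of them called in the unblocked fit. Without both libraries numbered 3, Sox5 and Chad in Nox4 KO were 0.04 and 0.04 (0.02 and 0.04 with the block), and the interaction was -0.01 for Tnmd and -0.07 for Sox9. Cilp in Nox4 KO over WT after TGF-β2 was -0.04 with the block. Leaving out one library at a time gave 0 to 1 members called in both TGF-β2 comparisons and 0 in the others, and 1 to 3 other tendon genes in Nox4 KO and 4 to 5 in WT. The log2 fold changes whose sign then turned ranged as follows. For TGF-β2 in Nox4 KO they were -0.48 to 0.92 for Scx, -0.11 to 0.14 for Sox5, -3.24 to 0.4 for Sox6 and -0.45 to 0.39 for Chad. For Nox4 KO over WT in control they were -0.4 to 0.36 for Mkx, -0.23 to 0.19 for Sox9, -0.25 to 0.06 for Sox5, -0.56 to 1.78 for Sox6, -0.24 to 0.6 for Comp and -0.35 to 0.33 for Cilp. After TGF-β2 they were -0.09 to 1.03 for Scx, -0.06 to 0.3 for Mkx, -1.14 to 1.64 for Sox6, -0.35 to 0.07 for Comp and -0.27 to 0.58 for Cilp. For the interaction they were -0.19 to 0.56 for Mkx, -0.13 to 0.24 for Tnmd, -0.02 to 0.43 for Sox9, -2.23 to 1.43 for Sox6, -0.74 to 0.12 for Comp and -0.21 to 0.63 for Cilp.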
